A study of Mus musculus with 9 samples.

Results

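The 40 genes described here copy DNA, make its building blocks or pack the new strand into chromatin. They were chosen by symbol for that function, with earlier results of these data known. They are 40 of the 24062 genes listed in the count table, and all 40 were among the 15369 genes with enough counts to be tested. RNA was sequenced from fibroblasts of C57BL/6 mouse embryos, in 3 groups of 3 samples. Every group, the control included, had been made senescent with gamma rays and, at day 10 after irradiation, infected with a lentivirus for a short hairpin RNA, which lowers the transcript it matches. In 2 groups the hairpin was shRela-1 or shRela-2, each against Rela, which encodes p65, a subunit of the transcription factor NF-kB, and in the third it was shScr, a scrambled control. The sources used here give no hairpin sequence, and they do not say that replicates were separate cultures, so the p-values rest on a spread between samples that may be technical. A dataset tag stands in the titles of the shScr samples and not in those of the shRela samples, so any batch that goes with the tag and the control group cannot be told apart. That limit touches each comparison with shScr and does not touch the comparison of shRela-2 with shRela-1.

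A chromosome is licensed for copying when the origin recognition complex, Cdc6 and Cdt1 load the ring-shaped MCM helicase onto DNA before S phase. At the start of S phase Cdc45 and the GINS complex join the ring and switch it on, primase and polymerase alpha lay down primers, and polymerases epsilon and delta extend them on the PCNA clamp, which the RFC clamp loader opens and closes. Single strands are covered by RPA, ribonucleotide reductase and thymidylate synthase supply deoxynucleotides, and CAF-1 places histones behind the fork. Many of these genes are transcribed under E2F factors as cells enter S phase, and in senescent cells, which no longer divide, their transcripts are typically low.

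Total counts ran from 49774667 to 67963506 per sample. The knockdown left Rela at 16.01 ± 0.572% (shRela-1) and 16.3 ± 0.902% (shRela-2) of its shScr mean (SD, n = 3 each), so both hairpins lowered their target to a similar level. Fibroblast genes were abundant throughout, and the sum of 10 of them was 34740 to 35000 CPM with shRela-1, 31270 to 32090 CPM with shRela-2 and 30530 to 33160 CPM with shScr. CPM is the number of counts of a gene when the library is scaled to 1000000 counts, with library sizes adjusted by edgeR's TMM method. Cdkn1a, the gene of the cell cycle inhibitor p21, stood at 1054 ± 52.7 CPM with shRela-1, 1149 ± 93.4 CPM with shRela-2 and 964.0 ± 43.9 CPM with shScr (SD, n = 3 each). It rose with shRela-2 by 0.25 ± 0.0626 (log2, edgeR adjusted p = 0.0107). With shRela-1 it stood 0.13 ± 0.0625 above shScr (log2; adjusted p = 0.169, against 0.00192 when the number in the titles was a block), and the hairpins differed by 0.12 (adjusted p = 0.142, against 0.00191 so blocked).

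Some markers of cell types also differed between the groups, as many genes did. Of all genes tested, 12.3% were higher and 12.4% lower in shRela-1 than in shScr samples (edgeR adjusted p under 0.05). For shRela-2 the shares were 15.4% in each direction. Between the hairpins, 20.0% of all genes were higher and 19.9% lower in shRela-2 samples. Whether the markers exceeded these shares was not tested. Of the 10 fibroblast markers, 3 rose and 1 fell with shRela-1 (6 and 2 with the replicate number of the titles as a block), and between the hairpins 3 were lower and 1 higher with shRela-2 (7 and 1 with the block), where the summed levels did not overlap. With the block 2 also fell with shRela-2. The 3 that rose were 1 when shRela-1 replicate 3 or shScr replicate 2 was left out, and the 3 that were lower between the hairpins were 5 without shScr replicate 2. The 1 that fell with shRela-1 and was higher with shRela-2 than with shRela-1, Pdgfrb, lost the first call without shScr replicate 2 or 3, shRela-1 replicate 1 or 2 or shRela-2 replicate 2 (adjusted p 0.0579 to 0.161) and the second when shRela-2 replicate 2 or 3 or shRela-1 replicate 1 was left out (0.0525 to 0.0767).

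The summed levels of 9 macrophage and blood genes overlapped between the groups, at 411 to 546, 360.4 to 552 and 421 to 609 CPM with shRela-1, shRela-2 and shScr. Within a replicate number the sum was lower with shRela-2 than with shScr each time, at 360.4 against 421, 552 against 609 and 389 against 449 CPM for replicates 1 to 3, and lower than with shRela-1 in 2 of the 3 numbers. Itgam, an integrin of myeloid cells, was the member called, lower with shRela-2 than with shScr (-0.54 ± 0.147, edgeR adjusted p = 0.0171) and than with shRela-1 (-0.48 ± 0.147, adjusted p = 0.0248). With the replicate block 3416 of all 15369 genes fell with shRela-2 and 4006 were lower between the hairpins. In that fit 7 of the 9 macrophage and blood genes fell with shRela-2 and 6 were lower between the hairpins, the same direction as the replication genes. Without shRela-2 replicate 1 or 3, Itgam lost both calls, the first also without shScr replicate 2 and the second also without shRela-1 replicate 2 or 3 (adjusted p 0.0514 to 0.0845). Without shRela-2 replicate 2 the counts were 2 and 4.

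The sum of 6 epithelial genes was 11.9 to 20.2 CPM with shRela-1, 7.05 to 9.50 CPM with shRela-2 and 7.52 to 11.2 CPM with shScr, most of it Krt18, while Epcam was at most 0.154 CPM and Krt14 was at 0 in 4 samples and at most 0.148 CPM in the others. It was higher with shRela-1 than with both other groups, without overlap of samples. Krt18 was lower with shRela-2 than with shRela-1 (-1.14 ± 0.353, edgeR adjusted p = 0.0256), a call lost when shRela-2 replicate 2 or 3 or shRela-1 replicate 1 was left out (0.0883 to 0.102), and its log2 fold change of 1.05 ± 0.351 with shRela-1 passed with the block (adjusted p = 0.0528 without it and 4.61e-09 with it) and without shScr replicate 1 or shRela-2 replicate 1 (0.0168 and 0.0404). The sum of 6 neural genes was 187 to 192 CPM with shRela-1, 259.7 to 288 CPM with shRela-2 and 236 to 251 CPM with shScr, nearly all of it Nes and Tubb3, with Sox2 and Gfap under 0.618 CPM. These groups did not overlap, with shRela-1 below shScr and shRela-2 above it. Tubb3, a tubulin, was called in opposite directions with the hairpins, at -0.55 ± 0.0450 with shRela-1 and 0.56 ± 0.0446 with shRela-2 (log2, edgeR adjusted p = 1.39e-05 and 1.29e-05). Nes, nestin, fell with shRela-1, at -0.28 ± 0.0704 (adjusted p = 0.0143, and 0.0601 and 0.054 without shScr replicate 3 and shRela-1 replicate 2). The sum of 6 endothelial genes was 4.72 to 6.34 CPM with shRela-1, 4.84 to 6.49 CPM with shRela-2 and 5.005 to 6.29 CPM with shScr. Of these 6 genes, 0 were called in any comparison. The part of such cells in the results on replication genes was not tested.

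The replication genes stood on opposite sides of the control with the 2 hairpins. With shRela-1, 17 of the 40 genes rose against shScr and 0 fell, with a median log2 fold change of 0.26 and a range of -0.21 to 0.70. With shRela-2, 17 genes fell and 1, Rrm1, rose, with a median of -0.25 and a range of -1.17 to 0.21. Set directly against each other, shRela-2 samples had lower levels than shRela-1 samples for 34 of the 40 genes and higher levels for 0, with a median of -0.56 and a range of -1.52 to 0.07. The word rose or fell is used here where edgeR's quasi-likelihood test gave a Benjamini-Hochberg adjusted p under 0.05 over all 15369 genes. In bulk RNA, a smaller share of cells that make these transcripts and less of the transcript in each cell cannot be told apart.

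Against the background of all genes tested, these shares stood high in 1 direction each. With shRela-1, 12.3% of all genes rose and 12.4% fell. With shRela-2, 15.4% of all genes rose and 15.4% fell. Between the hairpins, 20.0% of all genes were higher with shRela-2 and 19.9% were lower, and the median of all genes was 0.00 in each comparison. The 3 comparisons share samples, so their counts are not independent of one another. In the 2 counts of 0, edgeR's unadjusted p was under 0.05 for 1 gene (Rfc3) that was lower with shRela-1, and 0 were higher with shRela-2 than with shRela-1, and DESeq2 and limma called 0 in both. When the replicate number of the titles was added to the fit as a block, the genes that rose with shRela-1 numbered 27, those that fell with shRela-2 numbered 25, and the count between the hairpins was again 34. Over all 15369 genes the block made these counts larger too, from 1887 to 3130, from 2371 to 3416 and from 3063 to 4006.

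The samples separated in the same way without a test. All 3 shRela-1 samples lay above all 3 shScr samples for 27 of the 40 genes, which is the case for 20.1% of all genes tested. All 3 shRela-2 samples lay below all 3 shScr samples for 24 genes, against 21.6% of all genes. All 3 shRela-2 samples lay below all 3 shRela-1 samples for 35 genes, against 25.0% of all genes. The summed level of the 40 genes was 799, 754 and 761 CPM in shRela-1 replicates 1 to 3, 565, 534 and 569 CPM in shRela-2 replicates 1 to 3, and 653, 629.6 and 631 CPM in shScr replicates 1 to 3. The groups did not overlap in this sum.

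**Figure D1:**
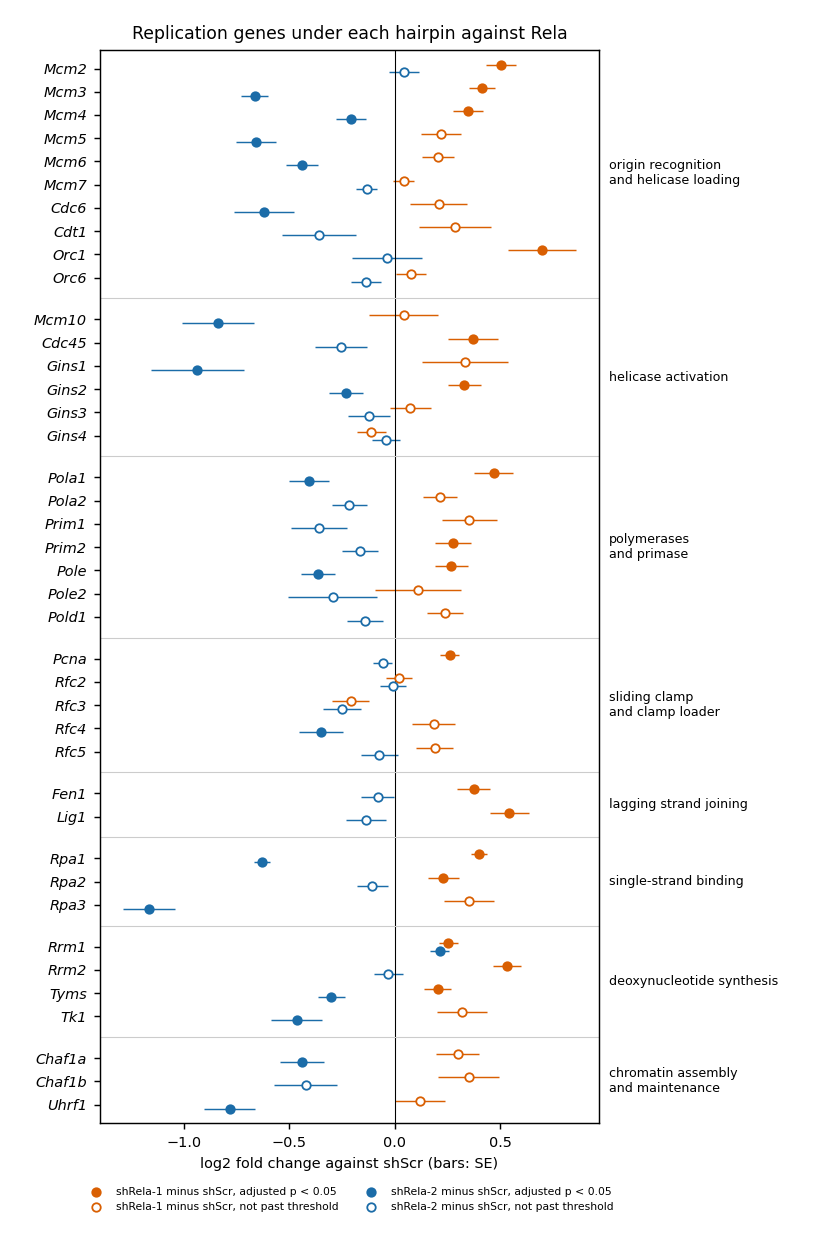
The log2 fold change against shScr of each of the 40 genes is plotted for shRela-1 (orange) and shRela-2 (blue), with bars for the standard error, grouped by role from top to bottom. Filled points have an edgeR adjusted p under 0.05: 17 orange points to the right of 0, 17 blue points to the left and 1 blue point, Rrm1, to the right.

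**Figure D2:**
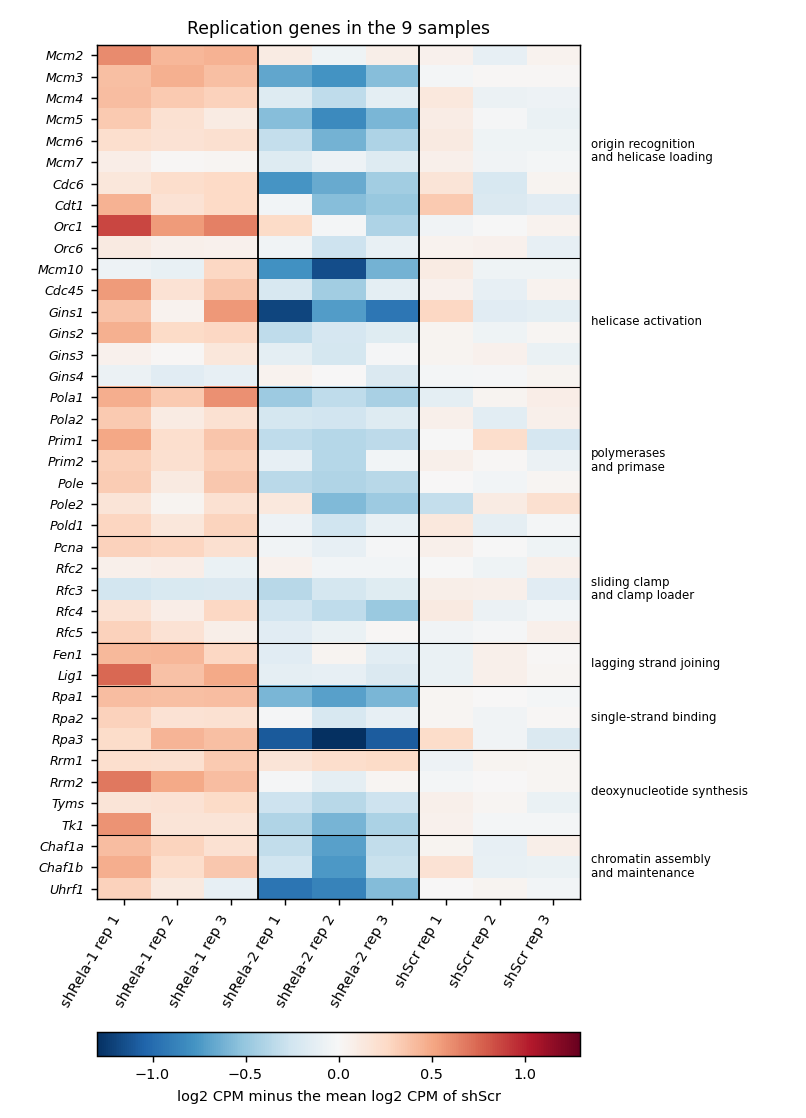
Each row is a gene and each column a sample, and the colour gives log2 CPM minus the mean log2 CPM of the 3 shScr samples (red higher, blue lower). The 3 shRela-1 columns are mostly red and the 3 shRela-2 columns mostly blue, with Rrm1 red and Gins4 and Rfc2 pale in both.

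The promoters of 33 of the 40 genes were found in RefSeq sequence tables of build GRCm38.p6 (38 promoters, each running from 250 bases before to 50 bases after a start site). An E2F word, here TTTGGCGC, TTTCGCGC, TTTCCCGC or TTTGCCGC on either strand, occurred in the promoters of 14 of these 33 genes and in 36.8% of their 38 promoters, against 2.26% of all 32851 promoters in the tables. The CCAAT word, on either strand, occurred in 60.5% of the 38 promoters and in 37.4% of all. The CHR words of cell cycle genes, TTTGAA and TTCGAA, occurred in 15.8% of the 38 and 19.2% of all. The kB motif, the site of NF-kB, occurred in 2.63% of the 38 (1 promoter, of Mcm7) and 4.51% of all. Of the 14 genes with an E2F word 11 were lower with shRela-2 than with shRela-1 (median log2 difference -0.67), and of the 19 without one 18 were lower (median -0.53). Of all genes tested, 19.9% were lower. A match of letters does not show that a factor binds there.

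The following stretches, 80 bases each and read 5′ to 3′ on the strand of the gene, lie ahead of the annotated start of genes whose levels are described next. The first 3 carry E2F words, in capitals, and their genes fell with shRela-2. Of the 14 genes with an E2F word 6 fell with shRela-2 and 4 rose with shRela-1. Of the 19 without one 7 fell and 9 rose, beside 15.4% and 12.3% of all genes. In Mcm5 and Mcm6 words on opposite strands overlap and share bases.
Mcm5, chr8:75109348-75109427, plus strand: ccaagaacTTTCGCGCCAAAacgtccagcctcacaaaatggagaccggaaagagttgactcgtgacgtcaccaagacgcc
Mcm6, chr1:128359744-128359823, minus strand: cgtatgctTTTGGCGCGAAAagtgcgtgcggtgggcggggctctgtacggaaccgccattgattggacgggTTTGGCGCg
Pola1, chrX:93632222-93632301, minus strand: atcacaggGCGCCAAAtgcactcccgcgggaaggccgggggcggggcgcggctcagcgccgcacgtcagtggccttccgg
The other 4 belong to genes whose promoters hold none of these E2F words, and their capitals mark CCAAT or its reverse complement ATTGG. They include the genes with the smallest p (Rpa1) and the largest log2 difference (Rpa3) between the hairpins, and both subunits of ribonucleotide reductase, of which Rrm1 did not follow the rest.
Rpa1, chr11:75348384-75348463, minus strand: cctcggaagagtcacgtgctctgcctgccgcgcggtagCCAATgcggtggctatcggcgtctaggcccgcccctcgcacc
Rpa3, chr6:8259174-8259253, minus strand: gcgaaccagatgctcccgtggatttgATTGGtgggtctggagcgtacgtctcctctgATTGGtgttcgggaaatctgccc
Rrm1, chr7:102441596-102441675, plus strand: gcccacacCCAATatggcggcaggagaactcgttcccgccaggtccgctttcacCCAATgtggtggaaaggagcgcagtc
Rrm2, chr12:24708161-24708240, plus strand: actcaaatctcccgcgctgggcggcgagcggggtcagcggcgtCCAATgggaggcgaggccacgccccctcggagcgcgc

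Origin recognition and helicase loading is the largest group, with 10 genes. All 10 were lower with shRela-2 than with shRela-1, by log2 differences of -0.17 to -1.08 (median -0.65). Against shScr, 4 rose with shRela-1 (Mcm2, Mcm3, Mcm4 and Orc1) and 5 fell with shRela-2 (Mcm3, Mcm4, Mcm5, Mcm6 and Cdc6). With the replicate block the counts were 7 and 7, as Mcm5, Mcm6 and Cdt1 joined the genes that rose and Mcm7 and Cdt1 those that fell. Within the MCM2-7 ring of 6 subunits these differences ran from -0.17 for Mcm7 to -1.08 for Mcm3.

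Mcm3, a subunit of the ring (chr1:20802968-20820312, minus strand in mm10), had 27.5, 29.0 and 27.5 CPM with shRela-1, 13.2, 12.3 and 14.3 CPM with shRela-2 and 20.6, 21.3 and 21.2 CPM with shScr. No sample of one group reached the values of another, with shRela-1 on top and shRela-2 at the bottom. The log2 fold change was 0.41 ± 0.0617 with shRela-1 and -0.67 ± 0.0631 with shRela-2 (SE; edgeR adjusted p = 0.000788 and 3.4e-05), and the difference between the hairpins was -1.08 ± 0.0630 (adjusted p = 4.82e-07). Mcm5, another subunit (chr8:75109569-75128439, plus strand), whose promoter stretch is shown above, stood at 16.8, 15.1 and 14.2 CPM in the shRela-1 samples, against 8.99, 7.42 and 8.72 CPM in the shRela-2 samples and 14.1, 13.0 and 12.4 CPM in the shScr samples. Its shRela-2 values lay below all others, while the shRela-1 values lay only just above those of shScr. It fell with shRela-2, at a log2 fold change of -0.66 ± 0.0951 (edgeR adjusted p = 0.000517). With shRela-1 its log2 fold change of 0.22 ± 0.0929 did not pass (adjusted p = 0.117, or 0.0163 with the replicate block).

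Mcm2 (chr6:88883474-88898780, minus strand) was called with shRela-1 and not with shRela-2. Its levels were 33.8, 29.8 and 30.1 CPM with shRela-1, 23.7, 21.2 and 23.3 CPM with shRela-2 and 23.0, 20.5 and 22.7 CPM with shScr. The shRela-1 samples lay above the other 6, among which shRela-2 and shScr overlapped. The log2 fold change was 0.50 ± 0.0712 with shRela-1 (edgeR adjusted p = 0.000545) and 0.04 ± 0.0717 with shRela-2 (adjusted p = 0.699, 95% interval -0.115 to 0.203), and the difference between the hairpins was -0.46 ± 0.0713 (adjusted p = 0.00047). Orc1, the largest subunit of the origin recognition complex (chr4:108579423-108614833, plus strand), had the largest rise of the 40 genes with shRela-1. It stood at 4.22, 3.38 and 3.63 CPM in the shRela-1 samples, against 2.74, 2.27 and 1.75 CPM in the shRela-2 samples and 2.23, 2.30 and 2.38 CPM in the shScr samples, so the shRela-1 samples were apart from the rest and shRela-2 and shScr overlapped. Its log2 fold change was 0.70 ± 0.162 with shRela-1 (edgeR adjusted p = 0.0102) and -0.04 ± 0.167 with shRela-2 (adjusted p = 0.9), and the difference between them was -0.74 ± 0.163 (adjusted p = 0.00441).

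Mcm4 (chr16:15623897-15637400, minus strand) was called in opposite directions with the hairpins. It had 42.7, 40.8 and 39.8 CPM in the shRela-1 samples, against 28.7, 25.6 and 29.6 CPM in the shRela-2 samples and 35.5, 30.6 and 30.9 CPM in the shScr samples. The 3 groups did not overlap, but shRela-2 and shScr came close, at 29.6 and 30.6 CPM. The log2 fold changes were 0.35 ± 0.0704 (edgeR adjusted p = 0.00486) and -0.21 ± 0.0711 (adjusted p = 0.0492), and the fall with shRela-2 no longer passed in 7 of the 9 fits that left out 1 library (adjusted p 0.0535 to 0.173), all but those without shScr replicate 2 and shRela-2 replicate 3. With the replicate block its adjusted p was 0.0023. Between the hairpins, the log2 differences were -0.55 ± 0.0708 for Mcm4, -0.88 ± 0.0949 for Mcm5 and -0.64 ± 0.0762 for Mcm6 (edgeR adjusted p = 0.00012, 3.72e-05 and 6.97e-05).

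Mcm6, whose promoter holds 3 E2F words on the 80 bases shown, had 33.0, 32.3 and 32.8 CPM with shRela-1, 22.8, 18.6 and 21.4 CPM with shRela-2 and 30.6, 27.2 and 27.2 CPM with shScr. Its groups were apart, with shScr replicate 1 closest to shRela-1. Mcm6 fell with shRela-2, at a log2 fold change of -0.44 ± 0.0764 (edgeR adjusted p = 0.00157), and its log2 fold change of 0.21 ± 0.0753 with shRela-1 passed with the block (adjusted p = 0.0734 without it and 0.00362 with it). It also passed without shScr replicate 1, shRela-2 replicate 1 or shRela-2 replicate 2 (adjusted p 0.0331 to 0.0474). Mcm7 had the smallest difference in the ring, with 32.3, 30.8 and 31.0 CPM in the shRela-1 samples, against 27.2, 29.0 and 27.1 CPM in the shRela-2 samples and 31.9, 29.5 and 30.0 CPM in the shScr samples. Its difference between the hairpins was -0.17 ± 0.0499 (edgeR adjusted p = 0.0172) and was lost without shRela-1 replicate 1, shRela-2 replicate 1 or shRela-2 replicate 3 (adjusted p 0.0508 to 0.0621). With shRela-2 its log2 fold change was -0.13 ± 0.05002 (adjusted p = 0.0678, against 0.0326 in the blocked fit). Reads of Mcm7 can be shared with Ap4m1 and Cops6, which overlap it on the opposite strand, and with the pseudogene Gm5487 (97.7% identical over 2157 bases).

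Cdc6 and Cdt1, the loaders of the ring, were both lower with shRela-2 than with shRela-1. Cdc6 had 2.72, 2.88 and 2.93 CPM with shRela-1, 1.45, 1.56 and 1.80 CPM with shRela-2 and 2.75, 2.13 and 2.53 CPM with shScr, and Cdt1 had 7.86, 6.52 and 6.84 CPM with shRela-1, 5.58, 3.91 and 4.08 CPM with shRela-2 and 7.26, 5.03 and 5.17 CPM with shScr. For Cdc6 all shRela-2 samples lay below the rest, and it fell with shRela-2, at a log2 fold change of -0.62 ± 0.143 (edgeR adjusted p = 0.00742), with a difference of -0.83 ± 0.141 between the hairpins (adjusted p = 0.000882). For Cdt1 the groups overlapped except between the hairpins, where the difference of -0.65 ± 0.174 (edgeR adjusted p = 0.0126) was lost without shRela-2 replicate 2 (adjusted p = 0.0514). Against shScr its log2 fold changes were 0.29 ± 0.172 with shRela-1 and -0.36 ± 0.175 with shRela-2 (adjusted p = 0.266 and 0.152). Among the fits of all samples these passed with the replicate block alone, at 0.30 ± 0.0916 and -0.36 ± 0.0963 (adjusted p = 0.013 and 0.00404). Its replicate 1 was the highest sample in each group, and without shRela-2 replicate 1 it fell with shRela-2 (adjusted p = 0.0437). Orc6, the smallest origin recognition subunit, had 21.1, 20.4 and 20.2 CPM with shRela-1, 18.8, 16.2 and 18.2 CPM with shRela-2 and 20.1, 20.2 and 18.1 CPM with shScr, and differed between the hairpins by -0.21 ± 0.0714 (edgeR adjusted p = 0.0355). That call was lost without any 1 of the 3 shRela-1 samples and without shRela-2 replicate 2 or 3 (adjusted p 0.0545 to 0.133).

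Of the 6 genes of helicase activation, 4 were lower with shRela-2 than with shRela-1 (Mcm10, Cdc45, Gins1 and Gins2), and Gins3 and Gins4 did not pass. Gins2 and Cdc45 rose with shRela-1, and Mcm10, Gins1 and Gins2 fell with shRela-2. Gins2, a subunit of the GINS complex (chr8:120578633-120589304, minus strand), had 15.9, 13.8 and 14 CPM with shRela-1, 9.22, 9.96 and 10.4 CPM with shRela-2 and 11.9, 11.1 and 11.8 CPM with shScr. Its groups did not overlap. The log2 fold changes were 0.33 ± 0.0785 with shRela-1 (edgeR adjusted p = 0.0115) and -0.23 ± 0.0796 with shRela-2 (adjusted p = 0.0495). The fall was lost in 8 of the 9 fits that left out 1 library, all but that without shRela-1 replicate 1 (adjusted p 0.051 to 0.159), and the difference between the hairpins was -0.56 ± 0.0792 (adjusted p = 0.000242). Gins2 overlaps Gse1 on the opposite strand.

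Gins1 (chr2:150905400-150931280, plus strand) is among the lowest of the 40 genes and had the second largest difference between the hairpins. Its levels were 1.55, 1.23 and 1.76 CPM with shRela-1, 0.521, 0.724 and 0.623 CPM with shRela-2 and 1.44, 1.08 and 1.097 CPM with shScr. All shRela-2 samples lay below the other 6, and shRela-1 and shScr overlapped. It fell with shRela-2, at a log2 fold change of -0.94 ± 0.222 (edgeR adjusted p = 0.00862), and the difference between the hairpins was -1.27 ± 0.219 (adjusted p = 0.00092). Mcm10, a factor needed to switch the helicase on, had 2.29, 2.25 and 2.88 CPM with shRela-1, 1.39, 1.08 and 1.57 CPM with shRela-2 and 2.59, 2.31 and 2.31 CPM with shScr, so its shRela-2 samples too lay below the other 6. Its log2 fold change was -0.84 ± 0.172 with shRela-2 (edgeR adjusted p = 0.00394) and 0.04 ± 0.164 with shRela-1 (adjusted p = 0.89). The differences between the hairpins were -0.88 ± 0.171 for Mcm10 and -0.63 ± 0.122 for Cdc45 (edgeR adjusted p = 0.00198 and 0.002).

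Cdc45, which joins the ring together with GINS, stood at 8.18, 6.35 and 7.16 CPM in the shRela-1 samples, against 4.84, 4.09 and 5.13 CPM in the shRela-2 samples and 5.82, 5.20 and 5.75 CPM in the shScr samples. All shRela-1 samples lay above all shScr samples, and all shRela-2 samples below them. It rose with shRela-1 by 0.37 ± 0.1205 (log2, edgeR adjusted p = 0.0468), a call lost in 7 of the 9 fits that left out 1 library, all but those without shRela-1 replicate 2 and shRela-2 replicate 2 (adjusted p 0.052 to 0.159). With shRela-2 the log2 fold change was -0.26 ± 0.123 (adjusted p = 0.148, against 0.0307 in the blocked fit). Gins3 had 4.54, 4.41 and 4.82 CPM with shRela-1, 3.995, 3.73 and 4.31 CPM with shRela-2 and 4.47, 4.52 and 4.10 CPM with shScr. Gins4 had 18.5, 17.6 and 18.1 CPM with shRela-1, 20.1, 19.6 and 17.1 CPM with shRela-2 and 19.1, 19.3 and 20.04 CPM with shScr. These remaining GINS subunits had groups that overlapped or lay close, and differed between the hairpins by -0.20 ± 0.0987 (95% interval -0.414 to 0.023) and 0.07 ± 0.0678 (-0.081 to 0.219), with edgeR adjusted p = 0.145 and 0.46. The 4 GINS subunits, which work in equal number in 1 complex, thus had log2 differences from -1.27 to 0.07.

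Among the 7 genes of the polymerases and primase, 6 were lower with shRela-2 than with shRela-1, all but Pole2. With shRela-1 Pola1, Prim2 and Pole rose, with shRela-2 Pola1 and Pole fell, and with the replicate block 6 rose and 5 fell. The count of 3 that rose was 1 without shScr replicate 3, shRela-1 replicate 1 or shRela-1 replicate 3. Pola1, the catalytic subunit of polymerase alpha (chrX:93304767-93632155, minus strand), had 10.5, 9.53 and 11.4 CPM with shRela-1, 5.46, 6.02 and 5.64 CPM with shRela-2 and 6.92, 7.75 and 8.03 CPM with shScr. The groups were fully apart. Its log2 fold changes were 0.47 ± 0.0942 with shRela-1 (edgeR adjusted p = 0.00471) and -0.41 ± 0.0963 with shRela-2 (adjusted p = 0.0086), with a difference of -0.88 ± 0.0957 between the hairpins (adjusted p = 3.98e-05).

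Pole, the catalytic subunit of the leading strand polymerase epsilon (chr5:110286306-110337474, plus strand), stood at 11.1, 9.56 and 11.2 CPM in the shRela-1 samples, against 6.93, 6.74 and 6.85 CPM in the shRela-2 samples and 8.85, 8.598 and 8.997 CPM in the shScr samples. Its 3 groups were apart as well, with little spread among the shRela-2 and the shScr samples. With shRela-2 it fell, at a log2 fold change of -0.37 ± 0.0814 (edgeR adjusted p = 0.00619), and the difference between the hairpins was -0.63 ± 0.0810 (adjusted p = 0.00012). The rise with shRela-1, 0.27 ± 0.0800 (adjusted p = 0.033), was lost without any 1 of the 3 shScr samples and without shRela-1 replicate 1 or 3 (adjusted p 0.0699 to 0.107). Pole2, the second subunit of polymerase epsilon, had overlapping groups, at 1.97, 1.79 and 2.00 CPM with shRela-1, 1.93, 1.18 and 1.26 CPM with shRela-2 and 1.42, 1.88 and 2.02 CPM with shScr. Its difference between the hairpins was -0.41 ± 0.210 (95% interval -0.871 to 0.061, edgeR adjusted p = 0.156), and it passed without shRela-2 replicate 1 (adjusted p = 0.0241).

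The primase subunits Prim1 and Prim2 differed between the hairpins by -0.71 ± 0.133 and -0.44 ± 0.0853 (log2, edgeR adjusted p = 0.00158 and 0.00192). Prim2 had 22.9, 21.2 and 22.9 CPM with shRela-1, 17.1, 14.2 and 18.0 CPM with shRela-2 and 19.3, 18.6 and 17.5 CPM with shScr. It rose with shRela-1 by 0.27 ± 0.0848 (adjusted p = 0.0383), and lost the call without any 1 of the shScr or shRela-1 samples (adjusted p 0.0501 to 0.133). Prim1 had 4.88, 4.02 and 4.43 CPM with shRela-1, 2.74, 2.67 and 2.72 CPM with shRela-2 and 3.43, 4.05 and 2.96 CPM with shScr, with shScr replicate 2 above shRela-1 replicate 2. Its log2 fold changes of 0.35 ± 0.131 and -0.36 ± 0.135 with shRela-1 and shRela-2 did not pass (edgeR adjusted p = 0.0764 and 0.0675), but passed with the block (0.0277 and 0.0296). The first also passed without shScr replicate 2 (adjusted p = 0.0325) and the second without shScr replicate 3 (adjusted p = 0.0318). Pola2, the second subunit of polymerase alpha, had 17.6, 15.0 and 15.9 CPM with shRela-1, 11.9, 11.7 and 12.4 CPM with shRela-2 and 14.6, 12.6 and 14.5 CPM with shScr. Pold1, the catalytic subunit of the lagging strand polymerase delta, had 18.1, 16.5 and 18.2 CPM with shRela-1, 14.2, 12.4 and 13.98 CPM with shRela-2 and 16.4, 13.7 and 14.7 CPM with shScr. For both, every shRela-1 sample was above every other. They differed between the hairpins by -0.43 ± 0.0813 and -0.38 ± 0.0845 (edgeR adjusted p = 0.00163 and 0.00446). With the block both rose with shRela-1 (adjusted p = 0.0108 and 0.00313), and Pola2 and Prim2 fell with shRela-2 (adjusted p = 0.0125 and 0.0444). Pola2 also fell without shScr replicate 2 (adjusted p = 0.0278), and Pold1 also rose without shScr replicate 1 (adjusted p = 0.0288).

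Of the 5 genes of the sliding clamp and its loader, 3 were lower with shRela-2 than with shRela-1 (Pcna, Rfc4 and Rfc5), 1 rose with shRela-1 (Pcna) and 1 fell with shRela-2 (Rfc4). Pcna, the clamp that holds polymerases on DNA (chr2:132249162-132253314, minus strand), had 55.8, 55.1 and 52.4 CPM with shRela-1, 43.9, 42.1 and 45.1 CPM with shRela-2 and 47.6, 45.3 and 43.6 CPM with shScr. The shRela-1 samples lay above the other 6, and shRela-2 and shScr overlapped. It rose with shRela-1 by 0.26 ± 0.0445 (log2, edgeR adjusted p = 0.00185), while its log2 fold change with shRela-2 was -0.06 ± 0.0448 (adjusted p = 0.385) and the difference between the hairpins -0.32 ± 0.0446 (adjusted p = 0.000238). A pseudogene, Pcna-ps2, is 99.2% identical to Pcna over 781 bases and is not in the count table, so reads from it could be counted for Pcna.

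Rfc4, a small subunit of the clamp loader (chr16:23113943-23127737, minus strand), had 5.67, 5.29 and 5.96 CPM with shRela-1, 4.19, 3.94 and 3.56 CPM with shRela-2 and 5.38, 4.70 and 4.83 CPM with shScr. Its shRela-2 samples lay below the other 6. With shRela-2 it fell, at a log2 fold change of -0.35 ± 0.104 (edgeR adjusted p = 0.0265), a call lost without shScr replicate 1 or 3 and without shRela-2 replicate 2 or 3 (adjusted p 0.0542 to 0.0943). The difference between the hairpins was -0.53 ± 0.103 (adjusted p = 0.00196). Rfc5, another small subunit, had 9.37, 8.62 and 7.99 CPM with shRela-1, 6.83, 7.16 and 7.67 CPM with shRela-2 and 7.34, 7.49 and 7.96 CPM with shScr. It differed between the hairpins by -0.26 ± 0.0879 (edgeR adjusted p = 0.0361, and 0.0714 to 0.119 when replicate 1 or 2 of either hairpin was left out). Rfc2, also a small subunit, had 22.6, 23.0 and 20.4 CPM with shRela-1, 22.5, 21.1 and 21.1 CPM with shRela-2 and 21.6, 20.9 and 22.7 CPM with shScr, with overlapping groups. Its difference between the hairpins was -0.03 ± 0.0627 (95% interval -0.167 to 0.111, edgeR adjusted p = 0.758). Rfc3, a small subunit too, stood below shScr with both hairpins, at 7.26, 7.50 and 7.55 CPM with shRela-1, 6.70, 7.32 and 7.67 CPM with shRela-2 and 9.07, 8.97 and 7.77 CPM with shScr. Neither log2 fold change, -0.21 ± 0.0889 with shRela-1 and -0.25 ± 0.0893 with shRela-2, passed (edgeR adjusted p = 0.117 and 0.057). The second passed with the block (adjusted p = 0.0235) and without shScr replicate 3 (adjusted p = 0.0306). The large subunit Rfc1, which is not among the 40 genes, was higher with shRela-2 than with shScr by 0.28 ± 0.0493 (edgeR adjusted p = 0.00178), against -0.07 ± 0.0494 with shRela-1 (adjusted p = 0.348).

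Lig1 and Fen1, which join the pieces of the lagging strand, rose with shRela-1, and neither fell with shRela-2 (0 of 2 at an unadjusted p under 0.05, and 0 by DESeq2 and limma). Lig1, the ligase (chr7:13277283-13311433, plus strand), had 18.0, 13.9 and 15.1 CPM with shRela-1, 9.86, 9.96 and 9.44 CPM with shRela-2 and 10.1, 11.2 and 10.9 CPM with shScr. Its shRela-1 samples lay above all others, and shRela-2 lay just below shScr. The log2 fold change was 0.54 ± 0.0936 with shRela-1 (edgeR adjusted p = 0.0019) and -0.14 ± 0.0949 with shRela-2 (adjusted p = 0.311). Fen1, the nuclease that trims the flap ahead of the ligase (chr19:10199132-10204169, minus strand), stood at 14.8, 14.9 and 13.4 CPM in the shRela-1 samples, against 10.0, 11.4 and 10.1 CPM in the shRela-2 samples and 10.5, 11.6 and 11.2 CPM in the shScr samples. Again the shRela-1 samples were apart and the other groups overlapped. It rose with shRela-1 by 0.37 ± 0.0791 (log2, edgeR adjusted p = 0.00626), and the differences between the hairpins were -0.68 ± 0.0942 for Lig1 and -0.46 ± 0.0794 for Fen1 (adjusted p = 0.000205 and 0.00101).

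RPA, the complex that coats single-stranded DNA in replication and repair, held the gene with the smallest p (Rpa1) and the gene with the largest log2 difference (Rpa3) between the hairpins. All 3 subunits were lower with shRela-2 than with shRela-1. Rpa1, the large subunit (chr11:75298166-75348324, minus strand), had 71.5, 71.4 and 71.9 CPM with shRela-1, 36.0, 33.2 and 35.9 CPM with shRela-2 and 55.2, 54.4 and 53.4 CPM with shScr. The 3 values of a group lay close together, and the groups were far apart. It rose with shRela-1 by 0.40 ± 0.0371 (log2, edgeR adjusted p = 3.29e-05) and fell with shRela-2, at a log2 fold change of -0.63 ± 0.0379 (adjusted p = 2.56e-06). The difference between the hairpins was -1.03 ± 0.0378 (adjusted p = 2.64e-08). No gene on the opposite strand overlaps Rpa1 in the annotation, though Gm47300 overlaps it on the same strand, and no near-identical copy was found.

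Rpa3, the small subunit (chr6:8255936-8259173, minus strand), had 8.71, 10.0 and 9.66 CPM with shRela-1, 3.45, 2.98 and 3.47 CPM with shRela-2 and 8.67, 7.13 and 6.45 CPM with shScr. Every shRela-2 sample was lower than every other sample, and shRela-1 lay above shScr by a narrow margin, with shScr replicate 1 the highest control. It fell with shRela-2, at a log2 fold change of -1.17 ± 0.125 (edgeR adjusted p = 7.44e-05), and the difference between the hairpins was -1.52 ± 0.125 (adjusted p = 5.2e-06). With shRela-1 its log2 fold change of 0.35 ± 0.119 missed the threshold (adjusted p = 0.0534), and it passed with the replicate block (adjusted p = 0.00639) and without shScr replicate 1 (adjusted p = 0.0144). Rpa2, the middle subunit, had 12.2, 11.3 and 11.4 CPM with shRela-1, 9.86, 8.64 and 9.22 CPM with shRela-2 and 10.2, 9.62 and 10.1 CPM with shScr. Its shRela-1 samples lay above all others, and it rose with shRela-1 by 0.23 ± 0.0735 (edgeR adjusted p = 0.0446). That call was lost without any 1 of the shScr or shRela-1 samples and without shRela-2 replicate 3 (adjusted p 0.0631 to 0.137). With shRela-2 the log2 fold change of Rpa2 was -0.11 ± 0.0742 (adjusted p = 0.317) and the difference between the hairpins -0.34 ± 0.0738 (adjusted p = 0.00417), so the 3 subunits of 1 complex ranged from -0.11 to -1.17 with shRela-2.

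**Figure D3:**
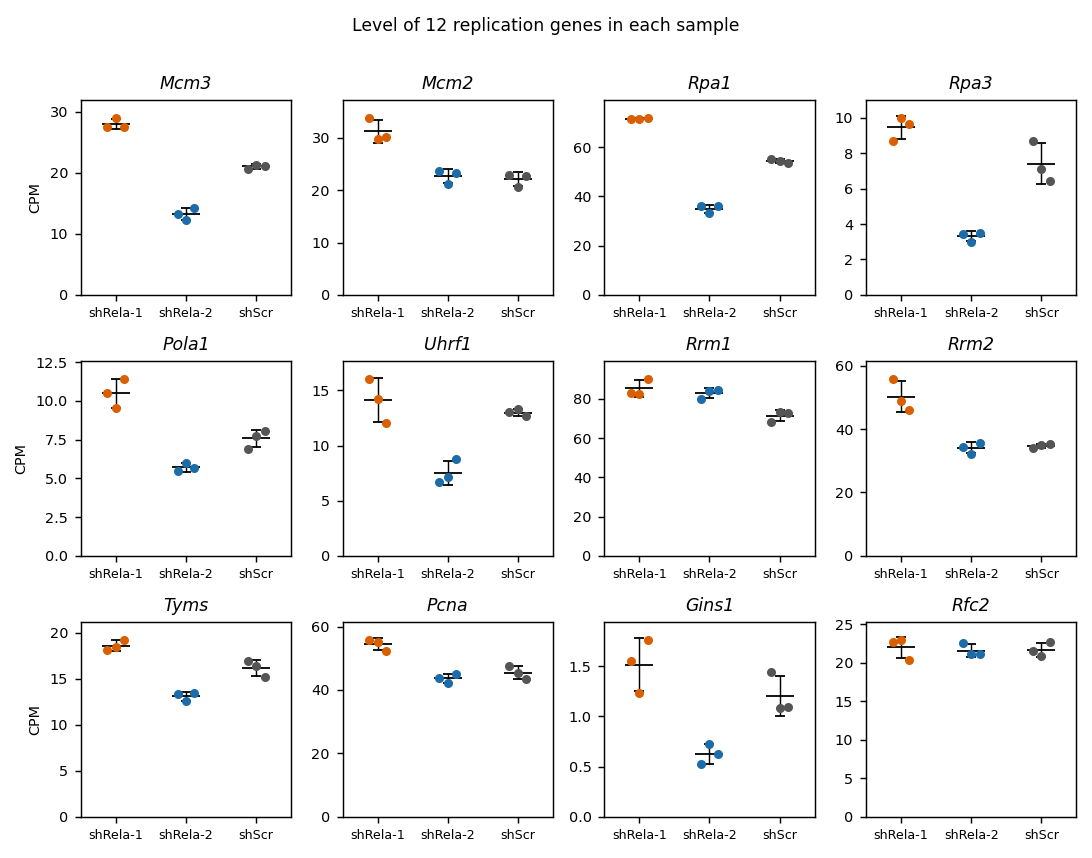
Each panel gives the CPM of 1 gene in the 9 samples (points), with the mean and SD of each group (black, n = 3), for shRela-1, shRela-2 and shScr from left to right. The 3 groups are apart for Mcm3, Rpa1, Rpa3, Pola1 and Tyms, the shRela-1 samples lie above the other 6 for Mcm2, Rrm2 and Pcna, both hairpin groups lie above shScr for Rrm1, and all groups overlap for Rfc2.

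Deoxynucleotide synthesis held the 1 gene called in the same direction with both hairpins. Rrm1, the large subunit of ribonucleotide reductase (chr7:102441695-102469771, plus strand), had 83.2, 82.5 and 90.1 CPM with shRela-1, 80.1, 83.9 and 84.6 CPM with shRela-2 and 68.3, 73.4 and 72.7 CPM with shScr. Both knockdown groups lay above all shScr samples and overlapped each other. It rose with both, by 0.25 ± 0.0452 (shRela-1) and 0.21 ± 0.0452 (shRela-2) (log2, edgeR adjusted p = 0.00229 and 0.00476), and the difference between the hairpins was -0.04 ± 0.0451 (95% interval -0.141 to 0.059, adjusted p = 0.511). Both changes are measured against the same shScr samples. Rrm2, the small subunit, which is made in S phase (chr12:24708241-24714146, plus strand), stood at 55.9, 49.0 and 46.1 CPM in the shRela-1 samples, against 34.5, 32.2 and 35.5 CPM in the shRela-2 samples and 34.2, 34.9 and 35.4 CPM in the shScr samples. The shRela-1 samples were apart from the other 6, and shRela-2 and shScr overlapped. It rose with shRela-1 by 0.53 ± 0.0669 (log2, edgeR adjusted p = 0.000251), against -0.03 ± 0.0674 with shRela-2 (adjusted p = 0.777, 95% interval -0.181 to 0.119). The subunits of this enzyme therefore differed between the hairpins by -0.04 for Rrm1 and -0.56 for Rrm2 (edgeR adjusted p = 7.44e-05 for Rrm2).

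Tyms, thymidylate synthase, which makes the DNA base thymine in its nucleotide form (chr5:30058202-30073617, minus strand), had 18.1, 18.5 and 19.2 CPM with shRela-1, 13.4, 12.6 and 13.4 CPM with shRela-2 and 16.9, 16.4 and 15.2 CPM with shScr. Its 3 groups did not overlap. It fell with shRela-2, at a log2 fold change of -0.30 ± 0.0638 (edgeR adjusted p = 0.0047). The rise with shRela-1 of 0.20 ± 0.0631 (adjusted p = 0.0394) was lost without any 1 of the shRela-1 samples and without shScr replicate 2 or 3 (adjusted p 0.0573 to 0.138). Parts of the Tyms transcripts resemble other loci, Tyms-ps among them (95.6% over 677 bases), so its counts are less certain. Tk1, thymidine kinase, which recycles thymidine, stood at 11.6, 8.75 and 8.72 CPM in the shRela-1 samples, against 5.92, 5.12 and 5.84 CPM in the shRela-2 samples and 8.08, 7.62 and 7.61 CPM in the shScr samples. Its 3 groups were apart, and it fell with shRela-2, at a log2 fold change of -0.47 ± 0.121 (edgeR adjusted p = 0.0141, and 0.0575 without shRela-2 replicate 2). With shRela-1 the log2 fold change of 0.32 ± 0.119 passed with the block and with DESeq2 (adjusted p = 0.0762, then 0.00661 and 0.0485). The differences between the hairpins were -0.50 ± 0.0636 for Tyms and -0.79 ± 0.121 for Tk1 (edgeR adjusted p = 0.00011 and 0.000435).

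All 3 genes of chromatin assembly and maintenance were lower with shRela-2 than with shRela-1. Uhrf1, which carries DNA methylation onto the new strand by recruiting Dnmt1 (chr17:56303321-56323486, plus strand), had 16.04, 14.2 and 12.1 CPM with shRela-1, 6.74, 7.13 and 8.78 CPM with shRela-2 and 13.0, 13.3 and 12.7 CPM with shScr. The shRela-2 samples lay below the other 6, and shRela-1 and shScr overlapped. With shRela-2 it fell, at a log2 fold change of -0.78 ± 0.1199 (edgeR adjusted p = 0.000723), with 0.12 ± 0.117 for shRela-1 (adjusted p = 0.518). Chaf1a, the large subunit of the histone chaperone CAF-1 (chr17:56040439-56072289, plus strand), stood at 23.4, 21.7 and 20.4 CPM in the shRela-1 samples, against 14.2, 10.9 and 14.2 CPM in the shRela-2 samples and 18.2, 16.4 and 18.7 CPM in the shScr samples. Its 3 groups were apart, and it fell with shRela-2, at a log2 fold change of -0.44 ± 0.105 (edgeR adjusted p = 0.00929).

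None of the 3 chromatin genes rose with shRela-1 (0 by edgeR, 2 at an unadjusted p under 0.05, and 1 each by DESeq2 and limma), and 2 did with the replicate block. These were Chaf1a, with a log2 fold change of 0.30 ± 0.104 (edgeR adjusted p = 0.0607, or 0.00185 with the block), and Chaf1b, the middle subunit of CAF-1 (5.36, 4.51 and 4.92 CPM with shRela-1, 3.22, 2.30 and 3.15 CPM with shRela-2 and 4.39, 3.60 and 3.64 CPM with shScr), with 0.35 ± 0.145 (adjusted p = 0.11, or 0.0143). Chaf1a also passed without shRela-2 replicate 2 (adjusted p = 0.0164). With shRela-2 the log2 fold change of Chaf1b was -0.42 ± 0.150 (edgeR adjusted p = 0.0551, or 0.00453 with the block), and it passed with DESeq2 (adjusted p = 0.0393). The differences between the hairpins were -0.90 ± 0.1197, -0.74 ± 0.105 and -0.77 ± 0.148 for Uhrf1, Chaf1a and Chaf1b (adjusted p = 0.000155, 0.000259 and 0.00185).

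The library kit does not mark the strand, so reads of a gene that overlaps another on the opposite strand cannot be told apart from it. Beside Mcm7 and Gins2 this touches Cdc45 (Ufd1), Orc1 (Gm12743), Orc6 (Vps35), Rfc2 (Lat2), Rfc4 (Eif4a2), Rfc5 (Wsb2), Pole (Gm15792), Tk1 (Afmid), Fen1 (Gm10143 and Tmem258), Lig1 (Zswim9) and Chaf1a (Ubxn6). Near-identical copies elsewhere also make the counts of Cdc6 (Gm9430), Rfc5 (Gm12870), Rrm2 (Gm48455) and Uhrf1 (Gm5648) less certain.

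Levels of different genes can be set side by side only per length, given here as RPKM, the CPM of a gene divided by the length in kilobases of all its exons together. Per length, Pcna and Rrm2 were the most abundant of the 40 genes with shRela-1, at 22.7 ± 0.755 and 18.2 ± 1.81 RPKM (SD, n = 3 each). Gins4 stood at 13.4 ± 0.341 RPKM with shRela-1, 14.04 ± 1.20 RPKM with shRela-2 and 14.4 ± 0.357 RPKM with shScr. The lowest in every group were Mcm10, Cdc6 and, with shRela-2, Gins1, at 0.411 ± 0.0670 RPKM. Within the MCM ring, whose subunits are present once each, the means with shRela-1, shRela-2 and shScr were 11.4, 7.80 and 9.004 RPKM for Mcm4, the highest by this length, and 3.85, 2.10 and 3.31 RPKM for Mcm5, the lowest of the 6 with shRela-1 and shRela-2. Mcm2 was lowest by this length with shScr, at 3.17 ± 0.194 RPKM, against 3.31 ± 0.215 RPKM for Mcm5, a gap within their SD. Within RPA, the means in the same order of groups were 12.8, 6.29 and 9.74 RPKM for Rpa1, 3.90, 3.09 and 3.33 RPKM for Rpa2 and 8.33, 2.91 and 6.53 RPKM for Rpa3. Rpa3 thus stood above Rpa2 with shRela-1 and shScr, and with shRela-2 the gap between Rpa3 (2.91 ± 0.247 RPKM) and Rpa2 (3.09 ± 0.204 RPKM) was within their SD.

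These levels depend on the length used. Divided by the longest transcript in place of all exons, Mcm2 with shRela-1 was at 8.94 and not 4.49 RPKM, Rrm1 at 15.6 and not 7.74 RPKM, and Pola2 at 5.61 and not 1.95 RPKM, while Mcm4 and Gins4 kept their values of 11.4 and 13.4 RPKM. By that length Mcm7 stood above Mcm4 with shRela-2 (9.38 against 7.80 RPKM) and with shScr (10.3 against 9.004 RPKM), and the lowest of the ring with shScr was Mcm5, at 3.91 RPKM, against 6.31 RPKM for Mcm2. Fold changes between groups do not depend on it.

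**Figure D4:**
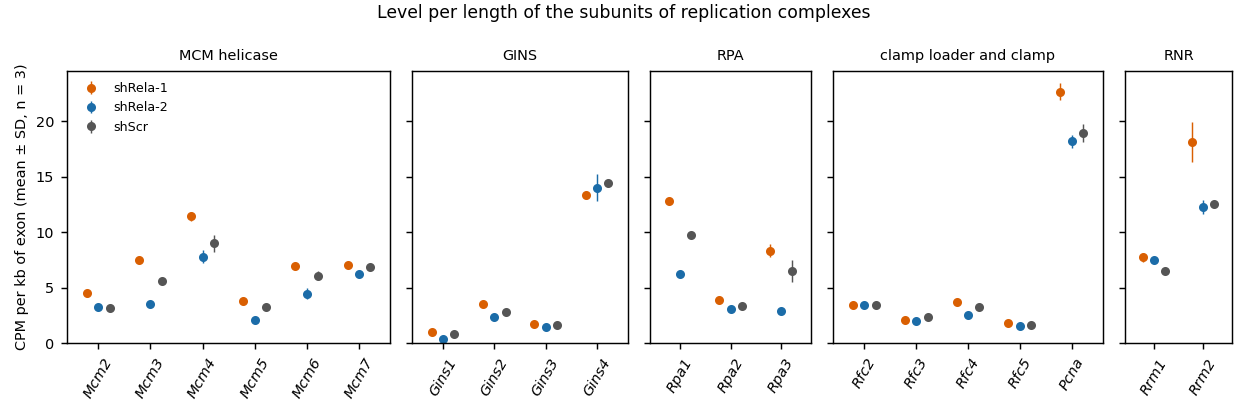
The level per length (CPM per kilobase of exon, mean ± SD, n = 3) is shown for the subunits of 5 complexes, with shRela-1, shRela-2 and shScr from left to right at each gene. Subunits of 1 complex differ in level and in how far the groups lie apart: Rpa1 spans 6.29 to 12.8 RPKM between shRela-2 and shRela-1, and Rfc2 and Gins4 hardly separate.

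Other genes of the same processes were set beside the 40. Of 42 other replication genes, 26 were lower and 4 higher with shRela-2 than with shRela-1 (median log2 difference -0.39). The same calls were made for 19.9% and 20.0% of all genes. Against shScr, 9 rose and 2 fell with shRela-1 (median 0.12), beside 12.3% and 12.4% of all genes. With shRela-2, 3 rose and 20 fell (median -0.29), beside 15.4% in each direction. Top2a, the topoisomerase of dividing cells, had 39.8, 34.6 and 36.1 CPM with shRela-1, 18.3, 16.3 and 19.2 CPM with shRela-2 and 24.7, 26.6 and 25.9 CPM with shScr. Its groups were apart, with log2 fold changes of 0.52 ± 0.0723 and -0.52 ± 0.0737 for shRela-1 and shRela-2 (edgeR adjusted p = 0.000503 and 0.000446). The histone chaperone Nasp and the deubiquitinase Usp1 fell with shRela-2, with log2 fold changes of -0.59 ± 0.0550 and -0.74 ± 0.0641 (edgeR adjusted p = 2.97e-05 and 1.9e-05).

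Genes of this list also went the other way. Orc2 and Orc4, further subunits of the origin recognition complex, fell with shRela-1, with log2 fold changes of -0.46 ± 0.0817 and -0.29 ± 0.0604 (edgeR adjusted p = 0.00235 and 0.00522), where Orc1 rose. Top1, the topoisomerase that relaxes DNA in all cells, rose with both hairpins, by 0.25 ± 0.0431 (shRela-1) and 0.25 ± 0.0432 (shRela-2) (log2, edgeR adjusted p = 0.00181 and 0.00146). Rnaseh2c, a subunit of the enzyme that removes ribonucleotides from DNA, rose with shRela-2 by 0.40 ± 0.0726 (adjusted p = 0.00192). Dnmt1, the maintenance DNA methyltransferase, rose with shRela-1 by 0.23 ± 0.0352 (adjusted p = 0.000953).

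The 19 other genes of nucleotide synthesis were called in both directions, as all genes were. With shRela-2 against shRela-1, 6 were higher and 5 lower (median -0.10), beside 20.0% and 19.9% of all genes. Against shScr, 1 rose and 5 fell with shRela-1, beside 12.3% and 12.4% of all genes, and 2 rose and 5 fell with shRela-2, beside 15.4% in each direction (medians -0.04 and -0.07). The 5 that fell with shRela-1 were 1 to 3 when any library but shScr replicate 1 or shRela-2 replicate 3 was left out, and the 1 that rose, Dck, was lost without shScr replicate 3. The 5 that fell with shRela-2 were 3 without shScr replicate 1 or 3 or shRela-2 replicate 2. The 5 that were lower between the hairpins were 2 or 3 when shRela-2 replicate 1 or 2 or shRela-1 replicate 3 was left out, and 8 with the replicate block. Rrm2b, the small reductase subunit that p53 induces and that serves resting cells, had 11.9, 11.7 and 12.8 CPM with shRela-1, 18.2, 19.2 and 18.7 CPM with shRela-2 and 15.0, 18.6 and 17.7 CPM with shScr. All shRela-1 samples lay below all others. It fell with shRela-1, at a log2 fold change of -0.50 ± 0.0823 (edgeR adjusted p = 0.00151), where Rrm2 rose, and did not pass with shRela-2 (0.13 ± 0.0814, adjusted p = 0.27). Impdh1, of the purine pathway, rose with shRela-2 by 0.52 ± 0.0353 (edgeR adjusted p = 4.84e-06). Dck, the deoxycytidine kinase, rose with shRela-1 by 0.30 ± 0.0738 (edgeR adjusted p = 0.0129, and 0.055 without shScr replicate 3).

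Purine and pyrimidine enzymes were called in either direction. Ctps, the CTP synthase, rose with shRela-2 by 0.20 ± 0.0422 (log2, edgeR adjusted p = 0.00498). Cad and Gart, of the pyrimidine and purine pathways, fell with shRela-2, with log2 fold changes of -0.23 ± 0.0435 and -0.25 ± 0.0464 (edgeR adjusted p = 0.00244 and 0.00238). With shRela-1 they also passed, at -0.13 ± 0.0434 and -0.15 ± 0.0463 (adjusted p = 0.0494 and 0.0417), but Cad lost that call in 7 of the 9 fits that left out 1 library, all but those without shScr replicate 1 and shRela-1 replicate 2 (0.0614 to 0.186). Gart lost it without shScr replicate 2 or 3, shRela-1 replicate 1 or 2 or shRela-2 replicate 2 (0.0582 to 0.139). Dut, which destroys dUTP, fell with shRela-2, at -0.41 ± 0.0983 (adjusted p = 0.00963). Samhd1, which breaks down deoxynucleotides, fell with shRela-1, at -0.23 ± 0.0738 (adjusted p = 0.042). It did not pass without any 1 of the shScr samples, shRela-1 replicate 1 or 3 or shRela-2 replicate 1 (0.0519 to 0.149). Between the hairpins the purine genes Atic and Paics differed by 0.20 ± 0.0470 and -0.14 ± 0.0395 (adjusted p = 0.0069 and 0.0145), the second not without shRela-2 replicate 2 (0.0515).

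Of 19 mitotic genes of cycling cells, 18 were lower with shRela-2 than with shRela-1 (median log2 difference -1.02), beside 19.9% of all genes. With shRela-1, 9 rose (median 0.38), beside 12.3% of all genes, and with shRela-2, 14 fell (median -0.55), beside 15.4%. With the replicate block 17 rose and 19 fell, beside 3130 and 3416 of all 15369 genes. The summed level of the 19 mitotic genes was 305, 226 and 248 CPM in shRela-1 replicates 1 to 3, 143, 124 and 139 CPM in shRela-2 replicates 1 to 3, and 213, 191 and 196 CPM in shScr replicates 1 to 3. The groups did not overlap. Mki67, the proliferation marker, had 26.9, 22.9 and 25.2 CPM with shRela-1, 14.2, 11.2 and 13.4 CPM with shRela-2 and 18.8, 18.6 and 20.1 CPM with shScr, with the groups apart. Kif11, a motor of the spindle, differed most, at 12.3, 9.70 and 10.8 CPM in the shRela-1 samples, against 2.66, 2.65 and 3.51 CPM in the shRela-2 samples and 6.401, 7.29 and 7.18 CPM in the shScr samples, with a log2 difference of -1.89 ± 0.134 between the hairpins (edgeR adjusted p = 1.73e-06). Ccna2, cyclin A, and Cenpf, a kinetochore protein, both differed by -1.02 and Tpx2, a spindle assembly factor, by -1.27 ± 0.111 (log2, edgeR adjusted p = 7.19e-06, 3.18e-05 and 7.96e-06). The medians of the 40 replication genes and of the mitotic genes thus lay on the same side of shScr, at 0.26 and 0.38 with shRela-1 and at -0.25 and -0.55 with shRela-2. The share of cells in cycle was not measured.

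The E2F and pocket protein genes, 11 in all, gave 1 higher and 4 lower with shRela-2 than with shRela-1, beside 20.0% and 19.9% of all genes. With shRela-1, 3 rose and 1 fell, beside 12.3% and 12.4% of all genes, and with shRela-2, 2 rose and 2 fell, beside 15.4% in each direction, so the counts with shRela-2 lay near the share of all genes. Without shScr replicate 3 the count that rose with shRela-1 was 1, and the 1 that fell, Rb1, was lost when shRela-1 replicate 1 or 3 or shScr replicate 2 or 3 was left out. With the replicate block 2 fell with shRela-1, and 3 were higher with shRela-2 than with shRela-1 (2 without shRela-1 replicate 2). E2f1, an activator of S phase genes, had 51.2, 43.6 and 46.4 CPM with shRela-1, 44.9, 44.6 and 40.8 CPM with shRela-2 and 50.1, 42.4 and 45.8 CPM with shScr, with overlapping groups (difference between the hairpins -0.12 ± 0.0729, edgeR adjusted p = 0.244, against 0.0484 in the blocked fit). E2f7 and E2f8, repressors that are themselves expressed in S phase, fell with shRela-2, with log2 fold changes of -0.58 ± 0.117 and -0.86 ± 0.129 (edgeR adjusted p = 0.00362 and 0.000643). E2f6, a repressor, had 99.0, 106 and 107 CPM with shRela-1, 65.4, 68.2 and 64.3 CPM with shRela-2 and 58.0, 64.4 and 55.4 CPM with shScr. Its shRela-1 samples stood apart, and it rose with shRela-1 by 0.81 ± 0.0558 (edgeR adjusted p = 3.89e-06), against 0.15 ± 0.0560 with shRela-2 (adjusted p = 0.0599, against 0.00379 in the blocked fit). E2f5, another repressor, rose with both hairpins, by 0.44 ± 0.104 (shRela-1) and 0.53 ± 0.104 (shRela-2) (log2, edgeR adjusted p = 0.0115 and 0.00305), the first not without shScr replicate 3 (0.0504). E2f7 rose with shRela-1 by 0.39 ± 0.112 (adjusted p = 0.0285), and not without any 1 of the shScr or shRela-1 samples (0.0514 to 0.0885). Rbl2, the pocket protein p130 of resting cells, rose with shRela-2 by 0.30 ± 0.0518 (adjusted p = 0.00158).

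**Figure D5:**
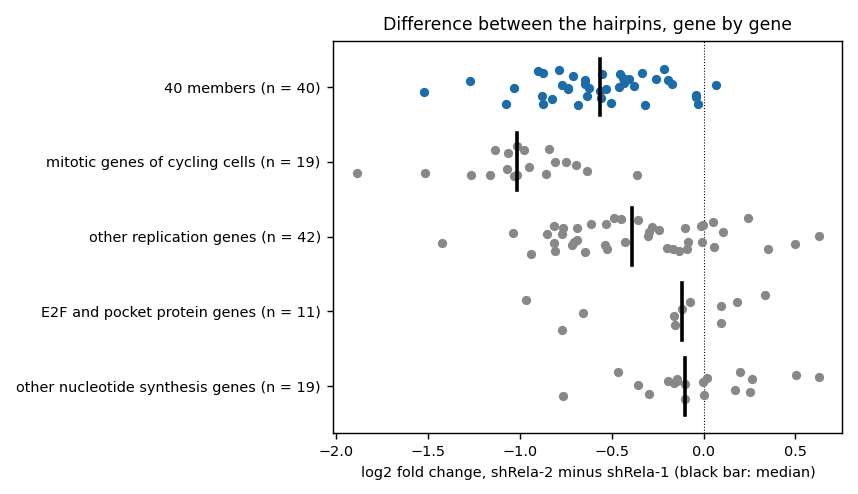
Each point is a gene, placed by its log2 fold change between shRela-2 and shRela-1 (negative is lower with shRela-2), and the black bar is the median of its list. The 40 genes have a median of -0.56, the mitotic genes -1.02, the other replication genes -0.39, the E2F and pocket protein genes -0.12 and the other nucleotide synthesis genes -0.10.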

How the data were processed

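RNA of 9 samples was purified with an RNeasy kit and prepared for sequencing with the TruSeq v2 kit, per the labels' protocols. That kit does not mark the strand. The authors deposited counts per gene, in 1 table of 24062 genes, with no normalization. Build mm10, featureCounts 1.4.6 with Subread, TopHat2 2.0.14 and Bowtie2 2.2.6 are listed in the submitters' processing notes, with neither role nor settings. Among low counts, 2 was more frequent than 1 (7984 and 2764 values). The sources used here do not say if each mate of a pair was counted on its own, so 2 counts may be 1 fragment.

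Genes with enough counts for edgeR's filterByExpr (15369) were tested in 1 quasi-likelihood fit of all 9 samples with 3 contrasts, with TMM scaling (edgeR 4.0.16, R 4.3.3) and Benjamini-Hochberg adjusted p-values over all genes tested. CPM used the same scaling. RPKM divided it by the union of exons, or as an alternative by the longest transcript, of the GENCODE vM21 annotation in mm10, which also gave the coordinates. Promoter sequences came from RefSeq tables of GRCm38.p6, and near-identical copies (at least 200 bases at 95% identity) from blastn 2.17.0. The 40 genes and the other lists were chosen with earlier results of these data known. All 40 were described, and from the other lists up to 3 called genes with the smallest p in each direction of each comparison were named (1 of them is not reported here), while E2f1 and the single markers were named after their values were seen. The marker symbol Adgre1 did not match the table (1 symbol of all lists).

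Replicate numbers come from the titles. Samples with the same number deviated together from their group means (r 0.189 to 0.415 over 9 pairs, against -0.306 to 0.0459 over 18 other pairs), so the numbers were taken to pair the samples, and the fit with that block is given where it changes a call printed here. Replicates differed by 11.3 to 106 in chi-square per degree of freedom, so none was treated as a copy of another. The highest values, 106 and 103, were those of shScr replicate 2 with shScr replicates 1 and 3. The next was 32.5, between shRela-1 replicates 1 and 2. The alternatives were DESeq2 size factors, no filter on low counts, DESeq2 1.42.0, limma 3.58.1 (voom), the replicate block, a fit of only the groups compared, and leaving out each of the 9 samples. The main fit and all alternatives but the blocked one left the replicate number out.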

Additional observations from a re-analysis of the deposited data

Results flagged for a closer look

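For 7 of the 40 genes the hairpins had opposite calls against the same shScr samples, and the difference between the hairpins was itself tested. With shRela-2 minus shRela-1, edgeR's log2 differences were -1.08 for Mcm3, -0.55 for Mcm4, -0.56 for Gins2, -0.88 for Pola1, -0.63 for Pole, -0.50 for Tyms and -1.03 for Rpa1. Each of these 7 was higher with shRela-1 and lower with shRela-2 than with shScr. The falls of Mcm4 and Gins2 were lost in 7 and 8 of the 9 fits that left out 1 sample. In 5 such fits each, the rises of Pole and Tyms were lost. How many of all genes had opposite calls was not counted. Rela itself was left at a similar share with both hairpins, 16.01% with shRela-1 and 16.3% with shRela-2 of the shScr mean.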

How the results depend on the processing

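Of 120 results (40 genes in 3 comparisons), 88 kept their side of the threshold in all 16 fits, and none of the 69 that passed changed sign. With the replicate block, 27 of the 40 genes rose with shRela-1 in place of 17, and over all genes 6034 were called in that comparison in place of 3799 (3130 higher and 2904 lower, in place of 1887 and 1912). Of the 40 genes 25 fell with shRela-2 with the block and 34 were lower between the hairpins, and the block changed no other call among the 40 genes than those given beside them. Over all genes 3416 fell with shRela-2 and 4006 were lower between the hairpins with the block, in place of 2371 and 3063. Leaving out 1 sample at a time gave 12 to 19 genes that rose with shRela-1, 13 to 17 that fell with shRela-2 and 31 to 34 that were lower between the hairpins. Over all genes it gave 1310 to 1908, 1903 to 2416 and 2659 to 3079 calls in these same directions. Calls with an adjusted p near the threshold depended on single samples in these fits, which held no block. These were, for example, the falls of Mcm4 and Gins2 with shRela-2 and the rises of Cdc45, Prim2, Pole, Tyms and Rpa2 with shRela-1. In the blocked edgeR fit of all samples their adjusted p was 0.0023, 0.0169, 0.00266, 0.00217, 0.00694, 0.0132 and 0.0114, in that order. Single samples were not left out with the block. Some of these calls also depended on the fit. Both falls were lost with DESeq2 size factors and with limma. With no filter the fall of Gins2 and the rises of Tyms and Rpa2 were lost. A fit of only the groups compared lost the fall of Mcm4 and the rises of Cdc45, Pole, Tyms and Rpa2. It also lost the difference of Rfc5 between the hairpins (edgeR adjusted p = 0.0579). In that fit Mcm6 and Chaf1a rose with shRela-1 (edgeR adjusted p = 0.0347 and 0.0248). Rpa3 and Pold1 rose with shRela-1 by DESeq2 and limma, and Mcm6 by limma. Between the hairpins the standard error was widest for Gins1 and Pole2, both under 3 CPM, and next for Cdt1, a gene of higher level, ahead of Mcm10 and Cdc6, which were under 3 CPM too. Whether depth sets these errors was not tested.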
